A study of Mus musculus with 12 samples.

Results

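Most of the 55 genes described here act in the last stage of the cell cycle, when a cell condenses its chromosomes, builds a spindle, separates the chromatids and divides. The set was chosen by name, as genes of mitotic entry, spindle, kinetochore, condensin and cytokinesis, and the rule uses no measured value. The choice was made with earlier results of these data known. All 55 were found among the 19439 entries of the deposited table, and all 55 were among the 11461 entries tested, those that reached 1 RPKM in 3 or more of the 12 libraries. RPKM is a read count divided by gene length and by library depth, so that levels of different genes can be compared per length. The lowest value of a member in any library was 1.004 RPKM, and no member was listed at 0.

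RNA was sequenced from 2 3T3 lines of mouse embryonic fibroblasts (MEFs), cells that became immortal through serial passage, both grown in standard medium with 25 mM glucose. The 4 groups were p53 -/- (p53-null) cells without added glutamine, p53-null cells in complete medium, cells with wild-type p53 (WT) without added glutamine and WT cells in complete medium. Each group was kept in its medium, DMEM without L-glutamine or DMEM with 2 mM L-glutamine, for 18 h, and gave 3 libraries. Each genotype is 1 line, so a difference between genotypes is a difference between these 2 lines, and nothing in the labels ties the 3 libraries of a group to different cultures. The p-values therefore cover the spread among the sequenced libraries alone, which may be technical.

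Mitosis is started by cyclin-dependent kinase 1 (CDK1) bound to cyclins A and B, and is ended when the anaphase-promoting complex (APC/C) marks those cyclins and securin for destruction. The spindle checkpoint holds the APC/C back until each chromosome is attached to the spindle at its kinetochore. In mammalian cells most of the genes involved are transcribed in a wave late in the cycle: the DREAM complex, built on the MuvB core, represses them in resting and early cycling cells, and B-MYB and FOXM1, bound to the same core, activate them later. MuvB binds a promoter motif called the cell cycle homology region, and the factor NF-Y binds a CCAAT box that often stands nearby. p53 is known to lower many of these genes through its target p21 and the DREAM complex. In fibroblasts such genes are low in resting cultures and high in dividing ones.

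Trp53, the gene that encodes p53, averaged 34.6 ± 0.614 RPKM in glutamine-free and 28.8 ± 0.873 RPKM in complete p53-null libraries, against 112 ± 2.22 and 58.5 ± 0.585 RPKM in the corresponding WT libraries (SD, n = 3 each). Every p53-null library was below every WT library of the same medium, but the transcript was not absent, and the exons that the reads came from are not recorded. Cdkn1a, which encodes p21, averaged 1.84 ± 0.164 and 0.973 ± 0.242 RPKM in glutamine-free and complete p53-null libraries, against 16.1 ± 0.261 and 2.62 ± 0.328 RPKM in WT libraries. Library depth, estimated from the steps between the lowest values, was 37.7 to 46.85 M reads, and the 12 pairs of libraries within groups had Pearson's r of 0.998 to 0.999, taken across genes, which are not independent replicates. Of 12 fibroblast markers 9 reached 1 RPKM in each group, while Thy1, Lum and Fap stood at or near 0. Summed fibroblast markers were 1432 to 1458 RPKM in p53-null glutamine-free, 2503 to 2540 in p53-null complete, 1028 to 1036 in WT glutamine-free and 4125 to 4145 in WT complete libraries. They thus moved with the mitosis genes, and their part in the results below was not tested. Of 9 fibroblast markers tested, 8 fell and 1 rose without glutamine in p53-null cells, where 32% of all tested genes fell and 50% rose, and 9 fell in WT cells, where 44% of all tested genes fell and 46% rose. Of the epithelial markers only Krt18 passed 1 RPKM, at 75.5 ± 1.3 and 59.6 ± 0.665 RPKM in glutamine-free and complete p53-null libraries and near 0 in WT libraries. Endothelial and blood markers summed to at most 1.58 and 7.52 RPKM in any library. Of 7 muscle and neural markers in the table, 2 reached 1 RPKM in p53-null groups and 4 in WT groups, with Stmn2 and Sox2 at 0 in p53-null libraries; they summed to at most 3.15 RPKM in p53-null and to 23.96 to 46.2 RPKM in WT libraries.

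Promoters of 9 members are shown because they hold the motifs named above in different combinations beside large, small or opposite changes. Ccnb2, Cenpa, Cenpf and Psrc1 had the 4 largest falls in WT cells on the log2(RPKM + 1) scale and hold both motifs. Plk1, Ccnb1 and Cdc20 were also among the strong falls, Bub3 had the smallest fall, and Mybl2 was the member that rose. Each stretch has 150 bases from RefSeq (GRCm38.p6) on the strand of the gene, read in the direction of transcription, and the annotated start is base 121. Capitals mark a match to TTTGAA or TTCGAA (cell cycle homology region) or to CCAAT (NF-Y box) on either strand, so TTCAAA and ATTGG are the same motifs on the other strand.
Ccnb2 (chr9:70421525-70421674, minus strand): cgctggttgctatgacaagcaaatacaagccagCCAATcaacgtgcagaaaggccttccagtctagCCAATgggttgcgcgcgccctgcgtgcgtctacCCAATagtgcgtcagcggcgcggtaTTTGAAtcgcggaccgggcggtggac
Cenpa (chr5:30666766-30666915, plus strand): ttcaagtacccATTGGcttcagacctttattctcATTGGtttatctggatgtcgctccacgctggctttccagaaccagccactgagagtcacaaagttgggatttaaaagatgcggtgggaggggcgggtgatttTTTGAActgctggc
Cenpf (chr1:189688057-189688206, minus strand): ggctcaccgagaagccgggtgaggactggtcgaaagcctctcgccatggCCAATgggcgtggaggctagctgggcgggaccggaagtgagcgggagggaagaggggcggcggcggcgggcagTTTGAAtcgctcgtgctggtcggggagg
Psrc1 (chr3:108383684-108383833, plus strand): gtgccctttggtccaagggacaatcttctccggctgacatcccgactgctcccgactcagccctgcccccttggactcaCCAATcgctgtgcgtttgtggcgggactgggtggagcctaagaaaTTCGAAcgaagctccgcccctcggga
Plk1 (chr7:122159315-122159464, plus strand): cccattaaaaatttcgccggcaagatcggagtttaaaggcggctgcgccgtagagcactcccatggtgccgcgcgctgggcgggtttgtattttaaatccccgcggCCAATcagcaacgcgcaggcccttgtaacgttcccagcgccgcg
Ccnb1 (chr13:100786457-100786606, minus strand): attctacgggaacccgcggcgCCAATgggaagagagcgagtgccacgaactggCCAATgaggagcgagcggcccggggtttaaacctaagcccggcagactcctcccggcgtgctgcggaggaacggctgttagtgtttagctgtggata
Cdc20 (chr4:118437314-118437463, minus strand): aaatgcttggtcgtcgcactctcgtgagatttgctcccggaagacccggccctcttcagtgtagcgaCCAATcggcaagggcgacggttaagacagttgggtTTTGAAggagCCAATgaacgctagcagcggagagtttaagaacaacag
Bub3 (chr7:131560250-131560399, plus strand): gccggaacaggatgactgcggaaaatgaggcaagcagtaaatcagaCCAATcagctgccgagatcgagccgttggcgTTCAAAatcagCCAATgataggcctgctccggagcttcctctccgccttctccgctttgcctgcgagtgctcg
Mybl2 (chr2:163054515-163054664, plus strand): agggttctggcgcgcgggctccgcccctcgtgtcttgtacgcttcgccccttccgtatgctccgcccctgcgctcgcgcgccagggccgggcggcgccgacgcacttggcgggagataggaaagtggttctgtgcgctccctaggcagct
In Ccnb2 the cell cycle homology region begins shortly after the start and 3 NF-Y boxes stand before it, and Cenpf and Psrc1 show the same order with 1 NF-Y box in the stretch. The Psrc1 match is TTCGAA, which reads the same on either strand. The Plk1 match to TTTGAA lies just beyond the stretch, 31 bases after the start. Ccnb1 holds NF-Y boxes and no match to the cell cycle homology region in its window, and Mybl2 holds neither motif.

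Windows from 250 bases before to 50 bases after the start were given by RefSeq for 46 of the 55 members, 4 of them with 2 windows. The cell cycle homology region motif (TTTGAA or TTCGAA, both strands) was in 39 of the 50 member windows (78%) and in 19.2% of all 32851 RefSeq promoter windows of that length. CCAAT was in 74% of member windows and 37.4% of all windows, and both motifs were in 68% of member windows and 7.52% of all windows. In 32 members a cell cycle homology region match was centred between 60 bases before and 50 bases after the start. The motifs overlapped each other in 1 member window. A match is a string of letters and does not show that a factor binds there.
The 35 members with a cell cycle homology region match had a median log2 change of -1.30 on glutamine withdrawal in WT cells, and the 11 members with a window and no such match had a median of -1.08. The 8 members with neither motif, Mad2l1, Pttg1, Birc5, Nuf2, Kif18a, Nusap1, Ncaph and Mybl2, ran from -1.77 for Nusap1 to 0.80 for Mybl2. Bub3 holds both motifs and had the smallest change of the 55 in WT cells. These medians describe the members, and the difference between them was not tested.

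**Figure D1:**
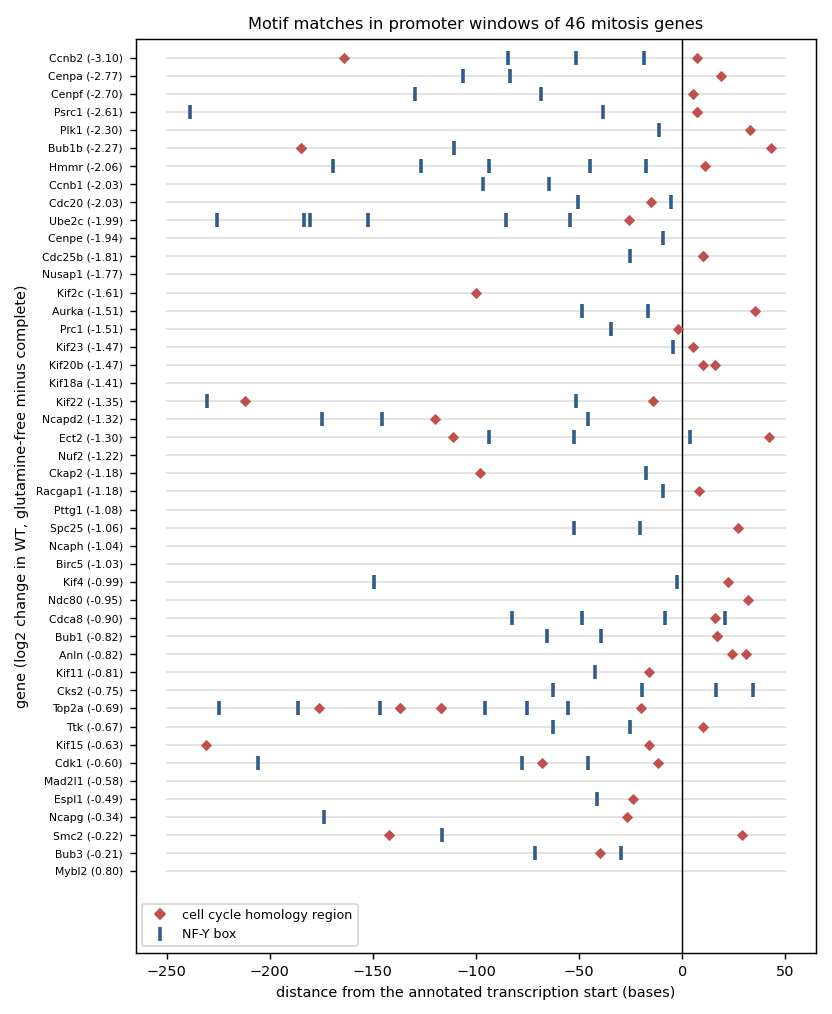
Matches to the cell cycle homology region (diamonds) and the NF-Y box (bars) in the first promoter window of 46 mitosis genes, placed by the centre of the match in bases from the annotated start, with genes ordered by their log2 change in WT cells (in brackets). Matches to the cell cycle homology region gather around the start in 32 genes, including Ccnb2 at the top (-3.10), and neither motif is present in the window of Mybl2 at the bottom (0.80).

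Glutamine withdrawal lowered most of these genes in p53-null cells and, by more, nearly all of them in WT cells. In p53-null cells 42 members fell and 10 rose (limma, adjusted p at most 0.05), where 32% of all tested genes fell and 50% rose, and Cdk1, Bub1 and Birc5 did not pass the test. The members' median log2 change was -0.24, against 0.08 over all tested genes, and 1 member, Ccnb2, fell at least 2-fold, against 2.03% of all tested genes. That count was 3 with a pseudocount of 0.1, 5 with median centring and 6 with quantile normalization. Of the calls over all genes in p53-null cells 61.0% were rises, and 47.6% with each library centred on its median, which moved the median of all genes to -0.02. With that centring 46 members fell and 6 rose, with a median of -0.35. In WT cells 54 of 55 members fell and 1, Mybl2, rose (limma, adjusted p at most 1.1e-06), where 44% of all tested genes fell and 46% rose. The median of the members there was -1.18, against 0.01 over all tested genes. The fall was at least 2-fold for 34 members, as it was for 12.9% of all tested genes. The libraries come from whole cultures, so fewer cells in mitosis and less RNA per mitotic cell cannot be told apart.
In p53-null cells the 3 glutamine-free libraries were below the 3 complete ones for 43 members and above for 8, and they overlapped for Bub1, Birc5, Ndc80 and Spc24. Over all tested genes they were below for 33.2% and above for 50.8%, and so did not overlap for 84%. In WT cells they did not overlap for any member, with the glutamine-free libraries below for 54 members and above for Mybl2. Over all tested genes they were below for 44.1% and above for 45.9%, so a lack of overlap in WT cells was common to 90% of genes. For 29 members the 4 groups stood in the same order with no overlap at all, low to high: WT glutamine-free, p53-null glutamine-free, p53-null complete, WT complete, as they did for 4.68% of all tested genes. The 55 members together summed to 1677 ± 11.1 RPKM in p53-null glutamine-free, 2024 ± 1.87 RPKM in p53-null complete, 1176 ± 4.36 RPKM in WT glutamine-free and 2623 ± 9.92 RPKM in WT complete libraries.

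**Figure D2:**
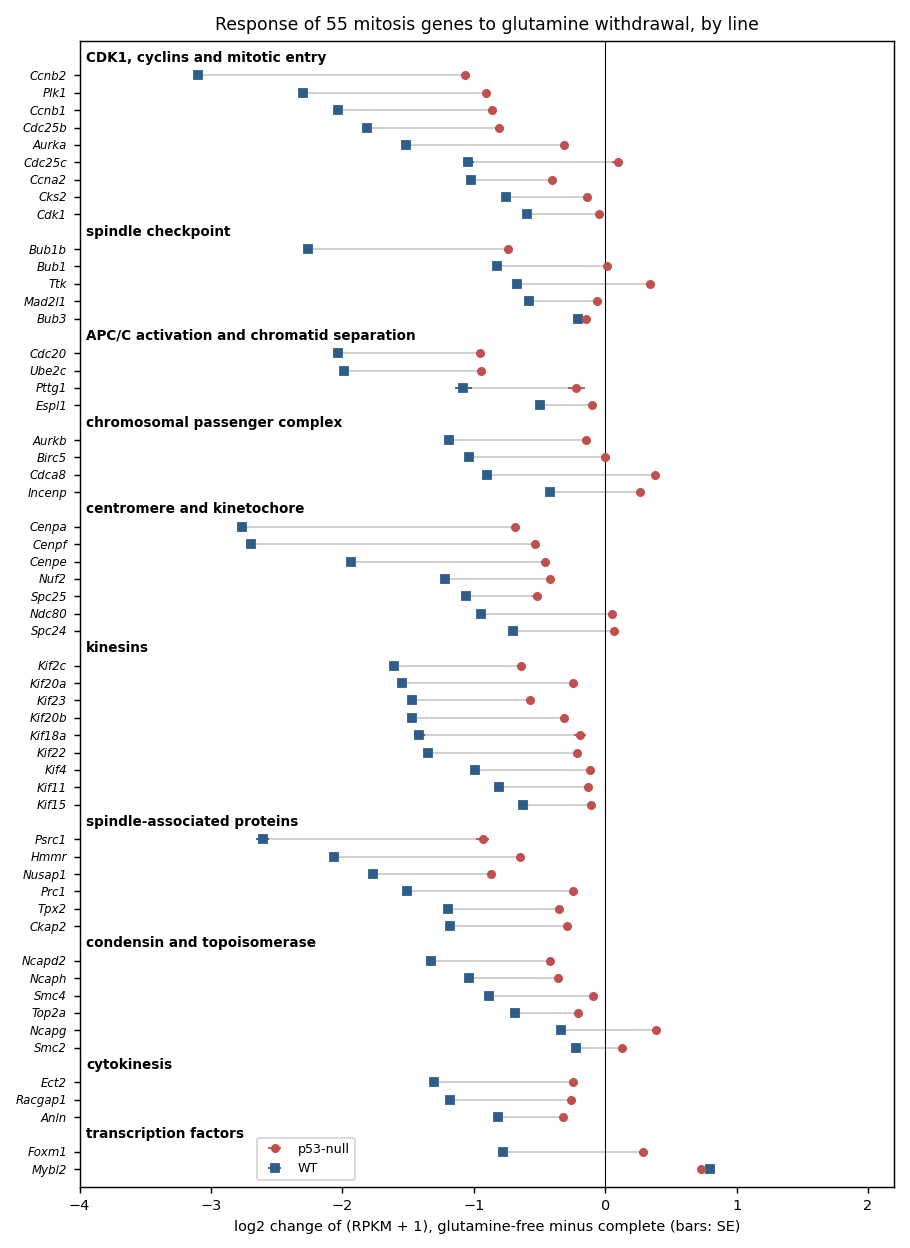
Log2 change of RPKM + 1 on glutamine withdrawal for each mitosis gene by role, in p53-null (circles) and WT cells (squares), with bars for the SE (n = 3 libraries per group). The p53-null points have a median of -0.24 and 10 called rises, and the WT points a median of -1.18, from -3.10 for Ccnb2 to 0.80 for Mybl2.

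The genes that start mitosis included Ccnb2, whose change in WT cells was the lowest of the set on the log2(RPKM + 1) scale. Cyclin B2 (Ccnb2, chromosome 9, 70407692 to 70421547, minus strand) was at 11.7, 12 and 12.8 RPKM in p53-null glutamine-free and 26.02, 27.5 and 26.04 RPKM in p53-null complete libraries, against 6.83, 7.25 and 6.74 RPKM in WT glutamine-free and 67.8, 65.2 and 67.6 RPKM in WT complete libraries. Plk1, the polo-like kinase that drives entry and spindle assembly, had 13.2, 13.5 and 13.3 RPKM in p53-null glutamine-free and 26.1, 26.4 and 24.8 RPKM in p53-null complete libraries, against 5.87, 5.88 and 6.15 RPKM in WT glutamine-free and 33.9, 32.8 and 33.3 RPKM in WT complete libraries. Cyclin B1 (Ccnb1) gave 28.4, 28.4 and 29.5 RPKM in p53-null glutamine-free and 53.01, 53.5 and 53.1 RPKM in p53-null complete libraries, against 20.01, 19.02 and 19.96 RPKM in WT glutamine-free and 84.8, 82.6 and 83.1 RPKM in WT complete libraries. For each of these genes the WT groups were the lowest and the highest, the p53-null groups stood between them, and no libraries of different groups overlapped. In p53-null cells the log2 change without glutamine was -1.06 ± 0.034 (SE) for Ccnb2, -0.90 ± 0.026 for Plk1 and -0.87 ± 0.021 for Ccnb1. In WT cells it was -3.10 ± 0.034 for Ccnb2, a 9.63-fold fall in mean RPKM, -2.30 ± 0.026 for Plk1 and -2.03 ± 0.021 for Ccnb1.
The phosphatase gene Cdc25b, whose product removes inhibitory phosphates from CDK1, changed by -0.81 ± 0.023 in p53-null and -1.81 ± 0.023 in WT cells, and the spindle pole kinase gene Aurka by -0.31 ± 0.018 in p53-null and -1.51 ± 0.018 in WT cells. Cyclin A2 (Ccna2) changed by -0.41 ± 0.019 in p53-null and -1.02 ± 0.019 in WT cells, and Cks2, a small subunit of CDK1 complexes, by -0.14 ± 0.028 in p53-null and -0.75 ± 0.028 in WT cells. Cdk1 itself moved less than its cyclins: it averaged 46.98 ± 0.596 RPKM in glutamine-free and 48.5 ± 0.72 RPKM in complete p53-null libraries, against 33.3 ± 0.624 and 51.02 ± 1.19 RPKM in the WT media. Its log2 change was -0.045 ± 0.02 in p53-null cells (adjusted p = 0.058, limma) and -0.60 ± 0.02 in WT cells. The p53-null fall of Cdk1 was called at -0.16 with quantile normalization, at -0.15 with median centring and at -0.045 in a fit of only the groups compared. Cdc25c, a relative of Cdc25b, changed by 0.096 ± 0.042 in p53-null cells, at the threshold (adjusted p = 0.05, limma), and fell by 1.04 on the log2 scale in WT cells. The p53-null rise became -0.03 with quantile normalization and -0.01 with median centring, and it was not called without any of 5 of the 6 p53-null libraries, all but the glutamine-free library 2, at 0.07 to 0.11, or with a pseudocount of 0.1 (0.10).

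The spindle checkpoint genes differed widely among themselves. Bub1b, which encodes the BubR1 inhibitor of the APC/C, had 25.8, 26.6 and 26.9 RPKM in p53-null glutamine-free and 44.6, 44.7 and 45.2 RPKM in p53-null complete libraries, against 10.6, 11.01 and 11.3 RPKM in WT glutamine-free and 56.4, 57 and 56.5 RPKM in WT complete libraries. The kinase gene Bub1 had 39.96, 40.4 and 41.5 RPKM in p53-null glutamine-free and 40.8, 40.2 and 39.9 RPKM in p53-null complete libraries, against 11.9, 12.01 and 11.5 RPKM in WT glutamine-free and 21.6, 21.9 and 21.6 RPKM in WT complete libraries. Bub1b was lowest and highest in the WT groups, whereas Bub1 overlapped between the p53-null media and was higher in every p53-null than in every WT library. Ttk, the Mps1 kinase that starts checkpoint signalling, had 12.03, 12.1 and 12.1 RPKM in p53-null glutamine-free and 9.41, 9.74 and 8.93 RPKM in p53-null complete libraries, against 13.4, 12.8 and 12.9 RPKM in WT glutamine-free and 21.3, 21.5 and 21.2 RPKM in WT complete libraries. Bub3, the adaptor that carries Bub1 and BubR1 to kinetochores, had 26.01, 24.95 and 25.3 RPKM in p53-null glutamine-free and 28.9, 27.6 and 28.03 RPKM in p53-null complete libraries, against 27.6, 27.5 and 28 RPKM in WT glutamine-free and 32.9, 31.6 and 31.9 RPKM in WT complete libraries. Ttk was higher without glutamine in p53-null and lower in WT libraries, and Bub3 stayed within 24.95 to 32.9 RPKM over all 12 libraries. In p53-null cells the log2 change was -0.74 ± 0.022 for Bub1b, 0.34 ± 0.027 for Ttk and -0.14 ± 0.022 for Bub3, and 0.011 ± 0.019 for Bub1, which did not pass the test (adjusted p = 0.62, limma) and became -0.12 with quantile normalization and -0.10 with median centring, both called. The change in WT cells was -2.27 ± 0.022 for Bub1b, -0.82 ± 0.019 for Bub1, -0.67 ± 0.027 for Ttk and -0.21 ± 0.022 for Bub3. Mad2l1, which encodes the MAD2 inhibitor of Cdc20, changed by -0.063 ± 0.022 in p53-null cells and -0.58 ± 0.022 in WT cells. The p53-null change of Mad2l1 was not called without the p53-null glutamine-free library 1 (-0.054), without the p53-null complete library 1 (-0.050) or with libraries rescaled to the same sum (-0.038).

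The genes that turn the APC/C on and release the chromatids fell in both lines. Cdc20, the mitotic activator of the APC/C, had 13.2, 12.9 and 13.2 RPKM in p53-null glutamine-free and 26.8, 26.1 and 26.2 RPKM in p53-null complete libraries, against 20.1, 21.01 and 20.6 RPKM in WT glutamine-free and 88.7, 87.5 and 85.2 RPKM in WT complete libraries. Ube2c, its ubiquitin-conjugating enzyme, had 56.7, 59.4 and 57.8 RPKM in p53-null glutamine-free and 112, 113 and 114 RPKM in p53-null complete libraries, against 24.7, 23.97 and 22.5 RPKM in WT glutamine-free and 97.1, 96.6 and 97.8 RPKM in WT complete libraries. Securin (Pttg1), which the APC/C destroys to free separase, had 7.54, 7.38 and 7.5 RPKM in p53-null glutamine-free and 8.09, 9.095 and 9.46 RPKM in p53-null complete libraries, against 3.14, 3.88 and 3.78 RPKM in WT glutamine-free and 9.16, 8.82 and 8.12 RPKM in WT complete libraries. Cdc20 was lowest in the p53-null glutamine-free libraries, Ube2c was highest in the p53-null complete ones, and Pttg1 overlapped between the lines in complete medium. The log2 change in p53-null cells was -0.96 ± 0.021 for Cdc20, -0.95 ± 0.027 for Ube2c and -0.22 ± 0.065 for Pttg1. WT cells had changes of -2.03 ± 0.021 for Cdc20, -1.99 ± 0.027 for Ube2c and -1.08 ± 0.065 for Pttg1. Separase (Espl1) moved less, by -0.098 ± 0.018 in p53-null and -0.49 ± 0.018 in WT cells. Of the exon length of Ube2c, 22.8% lies under Tnnc2 on the other strand, and the kit does not mark strand, so reads of the pair cannot be told apart there.

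The chromosomal passenger complex, which corrects faulty spindle attachments, did not move as a unit in p53-null cells and fell in WT cells. Its kinase gene Aurkb had 33.2, 33.9 and 34.2 RPKM in p53-null glutamine-free and 37.9, 37.7 and 37.1 RPKM in p53-null complete libraries, against 18.9, 19.3 and 19.97 RPKM in WT glutamine-free and 45.5, 45.6 and 45.5 RPKM in WT complete libraries. Survivin (Birc5), which places the complex on centromeres, had 29.3, 30.01 and 29.2 RPKM in p53-null glutamine-free and 29.2, 29.4 and 30.2 RPKM in p53-null complete libraries, against 17.1, 16.6 and 15.99 RPKM in WT glutamine-free and 35.6, 34.4 and 34.8 RPKM in WT complete libraries. Borealin (Cdca8) had 35.4, 34.3 and 33.8 RPKM in p53-null glutamine-free and 25.97, 26.7 and 26.2 RPKM in p53-null complete libraries, against 36.6, 37.6 and 35.6 RPKM in WT glutamine-free and 68.7, 69.7 and 69.2 RPKM in WT complete libraries. In p53-null libraries Aurkb was lower without glutamine, Birc5 overlapped between the media and Cdca8 was higher without glutamine, while in WT libraries all of them were lower. The p53-null log2 change was -0.15 ± 0.019 for Aurkb, 0.38 ± 0.021 for Cdca8 and 0.26 ± 0.013 for the scaffold gene Incenp. For Birc5 it was -0.005 ± 0.024 (adjusted p = 0.86, limma), became 0.02 with libraries rescaled to the same sum, and was called at -0.16 with quantile normalization and -0.11 with median centring. In WT cells the change was -1.19 ± 0.019 for Aurkb, -1.03 ± 0.024 for Birc5, -0.90 ± 0.021 for Cdca8 and -0.42 ± 0.013 for Incenp.

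Centromere and kinetochore genes held some of the strongest falls in WT cells. Cenpa, the histone H3 variant that marks centromeres, had 19.6, 19.02 and 18.7 RPKM in p53-null glutamine-free and 30.6, 31.6 and 31.6 RPKM in p53-null complete libraries, against 7.28, 6.93 and 6.85 RPKM in WT glutamine-free and 53.7, 54.5 and 52.5 RPKM in WT complete libraries. Cenpf, a large protein of the outer kinetochore (chromosome 1, 189640606 to 189688086, minus strand), had 9.44, 9.81 and 9.75 RPKM in p53-null glutamine-free and 14.6, 14.02 and 14.6 RPKM in p53-null complete libraries, against 2.697, 2.62 and 2.54 RPKM in WT glutamine-free and 22.2, 22.9 and 22.4 RPKM in WT complete libraries. Cenpe, a kinetochore motor that carries chromosomes to the spindle equator, had 10.4, 10.4 and 10.6 RPKM in p53-null glutamine-free and 14.7, 14.7 and 14.8 RPKM in p53-null complete libraries, against 8.45, 8.24 and 8.22 RPKM in WT glutamine-free and 34.5, 35.03 and 34.3 RPKM in WT complete libraries. All of them kept the same order of groups, with WT glutamine-free lowest, WT complete highest and no overlap. Glutamine withdrawal gave p53-null log2 changes of -0.68 ± 0.025 for Cenpa, -0.53 ± 0.026 for Cenpf and -0.46 ± 0.018 for Cenpe. In WT cells the changes were -2.77 ± 0.025 for Cenpa, -2.70 ± 0.026 for Cenpf and -1.94 ± 0.018 for Cenpe.
The 4 subunits of the Ndc80 complex, the rod that grips microtubules, split in p53-null cells. Nuf2 changed there by -0.42 ± 0.024 and Spc25 by -0.52 ± 0.033, while Ndc80 was at 0.049 ± 0.02 and Spc24 at 0.068 ± 0.027, small rises that became -0.11 and -0.08 with quantile normalization and -0.06 and -0.04 with median centring. In WT cells the subunits fell by 1.22 (Nuf2), 1.06 (Spc25), 0.95 (Ndc80) and 0.70 (Spc24) on the log2 scale. The Ndc80 rise was not called without p53-null glutamine-free library 2 (0.03) or 3 (0.05), or without p53-null complete library 2 or 3 (0.04 each). That of Spc24 was not called without p53-null glutamine-free library 2 or p53-null complete library 2 (0.05 each), or without p53-null complete library 1 (0.06).

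The 9 kinesin motors fell in both lines. Kif2c, a motor that takes microtubules apart at kinetochores, had 12.3, 11.9 and 11.7 RPKM in p53-null glutamine-free and 19.2, 18.96 and 19.4 RPKM in p53-null complete libraries, against 10.5, 10.5 and 10.5 RPKM in WT glutamine-free and 33.4, 34.4 and 34.3 RPKM in WT complete libraries. Kif20a, a motor of the central spindle, had 34.5, 33.7 and 34.6 RPKM in p53-null glutamine-free and 39.95, 41.01 and 41.3 RPKM in p53-null complete libraries, against 12.3, 12.1 and 12.6 RPKM in WT glutamine-free and 38.2, 37.8 and 37.8 RPKM in WT complete libraries. Kif23, the motor of centralspindlin, had 15.5, 15.7 and 15 RPKM in p53-null glutamine-free and 22.98, 23.6 and 23.5 RPKM in p53-null complete libraries, against 11.9, 10.6 and 11.5 RPKM in WT glutamine-free and 32.9, 33.1 and 33.6 RPKM in WT complete libraries. In all of these the WT glutamine-free libraries were lowest and no groups overlapped, and Kif20a was highest in the p53-null complete libraries, the others in the WT complete ones. The p53-null log2 changes without glutamine were -0.64 ± 0.021 for Kif2c, -0.24 ± 0.019 for Kif20a and -0.57 ± 0.032 for Kif23. The change in WT cells was -1.61 ± 0.021 for Kif2c, -1.54 ± 0.019 for Kif20a and -1.47 ± 0.032 for Kif23. The others were Kif11, which pushes the spindle poles apart, Kif15, which helps it, Kif18a, which limits chromosome oscillation, Kif20b, which acts in cytokinesis, and the chromosome-bound motors Kif22 and Kif4. Their changes ran from -0.31 for Kif20b to -0.11 for Kif15 in p53-null cells and from -1.47 for Kif20b to -0.63 for Kif15 in WT cells. Of the exon length of Kif20a 29.3% lies under Cdc23 on the other strand, so its reads are not cleanly separated from those of that APC/C subunit gene.

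The spindle-associated proteins had the largest median fall of any role in WT cells, -1.64, and all 6 fell at least 2-fold there. Psrc1, which binds and stabilises spindle microtubules, had 3.93, 3.7 and 3.91 RPKM in p53-null glutamine-free and 8.04, 8.302 and 8.45 RPKM in p53-null complete libraries, against 1.02, 1.24 and 1.004 RPKM in WT glutamine-free and 12.1, 12.03 and 11.1 RPKM in WT complete libraries. Hmmr, a spindle pole protein also known as a hyaluronan receptor, had 15, 14.8 and 15.4 RPKM in p53-null glutamine-free and 24.5, 24.5 and 23.5 RPKM in p53-null complete libraries, against 8.08, 8.37 and 8.39 RPKM in WT glutamine-free and 37.4, 38.05 and 37.7 RPKM in WT complete libraries. Nusap1, which bundles microtubules near chromosomes, had 14.7, 15.3 and 14.7 RPKM in p53-null glutamine-free and 28.2, 27.8 and 28.4 RPKM in p53-null complete libraries, against 12.6, 12.2 and 12.3 RPKM in WT glutamine-free and 45.1, 44.9 and 43.6 RPKM in WT complete libraries. The order of groups was that of Ccnb2 for each, with no overlap. In p53-null cells the log2 change was -0.93 ± 0.046 for Psrc1, -0.65 ± 0.023 for Hmmr and -0.87 ± 0.021 for Nusap1. WT cells had changes of -2.61 ± 0.046 for Psrc1, -2.06 ± 0.023 for Hmmr and -1.77 ± 0.021 for Nusap1. Near 1 RPKM the added 1 shrinks a log2 change, and in mean RPKM Psrc1 was 10.8-fold lower without glutamine in WT cells, a larger ratio than that of Ccnb2. Prc1, which bundles the central spindle, changed by -0.25 ± 0.02 in p53-null and -1.51 ± 0.02 in WT cells. Tpx2, the activator of Aurora A, changed by -0.35 ± 0.018 in p53-null and -1.20 ± 0.018 in WT cells, and the spindle protein gene Ckap2 by -0.29 ± 0.015 in p53-null and -1.18 ± 0.015 in WT cells.

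Subunits of condensin I, the ring that compacts mitotic chromosomes, did not move in step. Ncapd2 had 46.6, 47.1 and 47.4 RPKM in p53-null glutamine-free and 63.7, 62.6 and 63.4 RPKM in p53-null complete libraries, against 40.4, 41.2 and 40.9 RPKM in WT glutamine-free and 104, 103 and 104 RPKM in WT complete libraries. Ncaph, the subunit that closes the ring, had 26.4, 26.99 and 27.2 RPKM in p53-null glutamine-free and 35.4, 33.6 and 35.1 RPKM in p53-null complete libraries, against 14.7, 15.99 and 14.5 RPKM in WT glutamine-free and 31.6, 31.9 and 32.1 RPKM in WT complete libraries. Both were lower without glutamine in each line, and Ncaph was highest in the p53-null complete libraries. The core ATPase gene Smc4 had 51.2, 50.96 and 52.8 RPKM in p53-null glutamine-free and 54.9, 55.7 and 55.2 RPKM in p53-null complete libraries, against 70.1, 69.8 and 69.05 RPKM in WT glutamine-free and 129, 132 and 129 RPKM in WT complete libraries. Its partner Smc2 had 27.3, 28.1 and 28.2 RPKM in p53-null glutamine-free and 25.9, 25.3 and 25.2 RPKM in p53-null complete libraries, against 40.5, 39.4 and 39.6 RPKM in WT glutamine-free and 46.1, 47.3 and 46.6 RPKM in WT complete libraries. Every WT library was above every p53-null library for both ATPase genes, in contrast to Ncapd2 and Ncaph, whose WT glutamine-free libraries were the lowest. The log2 change in p53-null cells was -0.42 ± 0.014 for Ncapd2, -0.36 ± 0.031 for Ncaph, -0.097 ± 0.016 for Smc4 and 0.12 ± 0.019 for Smc2, the last of which became -0.04 with quantile normalization and was 0.02, not called, with median centring. In WT cells it was -1.32 ± 0.014 for Ncapd2, -1.04 ± 0.031 for Ncaph, -0.89 ± 0.016 for Smc4 and -0.22 ± 0.019 for Smc2. The subunit gene Ncapg changed by 0.38 ± 0.017 in p53-null and -0.34 ± 0.017 in WT cells. Top2a, the topoisomerase that untangles sister chromatids, was the member with the highest level per length in all 4 groups, at 147 ± 0.16 RPKM in p53-null glutamine-free and 169.6 ± 0.231 RPKM in p53-null complete, against 92.96 ± 1.69 RPKM in WT glutamine-free and 150.5 ± 1.81 RPKM in WT complete libraries.

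Genes of cytokinesis fell in both lines, about as far as the median member. Ect2, the exchange factor that switches on RhoA at the division plane, had 28.8, 29.5 and 29.7 RPKM in p53-null glutamine-free and 34.7, 35.4 and 34.5 RPKM in p53-null complete libraries, against 16.9, 16.3 and 15.8 RPKM in WT glutamine-free and 42.2, 41.7 and 41.4 RPKM in WT complete libraries. Racgap1, the partner of Kif23 in centralspindlin, had 61.1, 59.7 and 61.5 RPKM in p53-null glutamine-free and 72.2, 73.3 and 73.02 RPKM in p53-null complete libraries, against 37.4, 36.4 and 37.1 RPKM in WT glutamine-free and 84.9, 85.5 and 84.6 RPKM in WT complete libraries. Anillin (Anln), which anchors the contractile ring, had 40.8, 40.3 and 41.1 RPKM in p53-null glutamine-free and 50.9, 50.8 and 51.4 RPKM in p53-null complete libraries, against 32.7, 32.5 and 32.5 RPKM in WT glutamine-free and 58.1, 59.01 and 57.3 RPKM in WT complete libraries. The groups stood in the same order as for Ccnb2 and did not overlap. Glutamine withdrawal gave p53-null log2 changes of -0.24 ± 0.022 for Ect2, -0.26 ± 0.015 for Racgap1 and -0.32 ± 0.015 for Anln. The change in WT cells was -1.30 ± 0.022 for Ect2, -1.18 ± 0.015 for Racgap1 and -0.82 ± 0.015 for Anln.

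Of the transcription factors that activate such genes, Mybl2 rose in both lines, and Foxm1 rose in p53-null and fell in WT cells. Mybl2, which encodes B-MYB (chromosome 2, 163054687 to 163084688, plus strand), had 41.7, 41.5 and 40.3 RPKM in p53-null glutamine-free and 24.3, 24.8 and 24.3 RPKM in p53-null complete libraries, against 21.2, 21.4 and 21.7 RPKM in WT glutamine-free and 12.1, 11.7 and 11.8 RPKM in WT complete libraries. Foxm1, the forkhead factor of late G2 genes, had 52.7, 53.8 and 54.2 RPKM in p53-null glutamine-free and 43.1, 43.7 and 44.3 RPKM in p53-null complete libraries, against 26.8, 26.8 and 27.1 RPKM in WT glutamine-free and 45.6, 47.5 and 47.3 RPKM in WT complete libraries. Mybl2 was higher without glutamine in both lines and higher in each p53-null than in each WT library, and Foxm1 was higher without glutamine in p53-null and lower in WT libraries. The p53-null log2 changes without glutamine were 0.73 ± 0.019 for Mybl2 and 0.29 ± 0.018 for Foxm1. WT cells had changes of 0.80 ± 0.019 for Mybl2, the single rise among the 55, and -0.78 ± 0.018 for Foxm1.

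**Figure D3:**
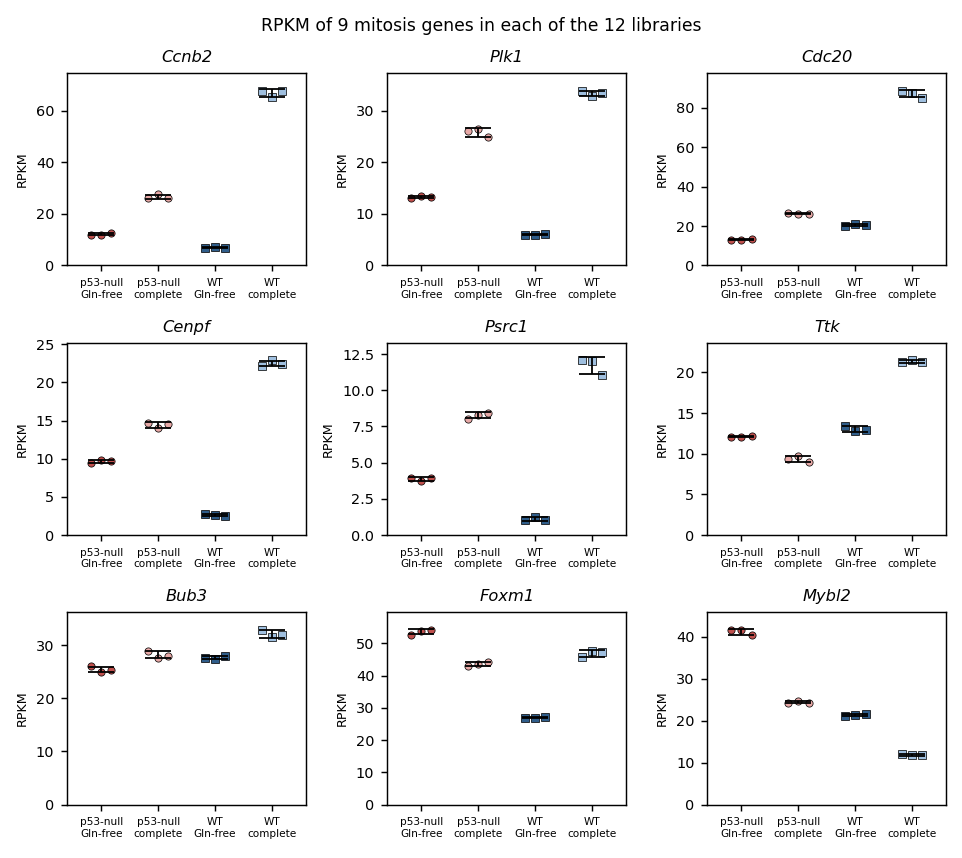
RPKM of 9 mitosis genes in each of the 12 libraries, with points for libraries and bars for the mean ± SD (n = 3) of each group. Ccnb2, Plk1, Cenpf and Psrc1 have p53-null groups that lie between the WT groups, with WT glutamine-free lowest, while Cdc20 is lowest in p53-null glutamine-free, Ttk and Foxm1 are higher without glutamine in p53-null cells, Bub3 varies from 24.95 to 32.9 RPKM, and Mybl2 is highest in p53-null glutamine-free and lowest in WT complete libraries.

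Between the lines, the sign of the difference turned with the medium for most members. In glutamine-free medium 47 members were higher and 8 lower in p53-null than in WT cells (limma), where 51.4% of all tested genes were higher and 40% lower. The median log2 difference was 0.65, against 0.10 over all tested genes, and 14 members were at least 2-fold higher, as were 10.7% of all tested genes. In complete medium 11 members were higher and 42 lower in p53-null cells, where 48.4% of all tested genes were higher and 42.5% lower, and Pttg1 and Kif18a did not pass (adjusted p = 0.71 and 0.14, limma). Kif18a was called lower in that medium with quantile normalization (-0.113), with median centring (-0.108) and in a fit of only the groups compared (-0.072). The median there was -0.33, against 0.05 over all tested genes, and 6 members were at least 2-fold lower, 10.9% of the members and 10.9% of all tested genes. A rescaling of libraries to the same sum moved the median of all genes in glutamine-free medium to 0.23 and that of the members to 0.80, and median centring moved them to -0.03 and 0.52. Both comparisons rest on the same 2 lines.
Of the 55 members 34 were higher in glutamine-free and lower in complete medium in p53-null than in WT cells, as were 11.1% of all tested genes. Cenpf, for example, differed by 1.56 ± 0.026 in glutamine-free and -0.61 ± 0.026 in complete medium, p53-null minus WT on the log2 scale. Cenpa differed by 1.33 ± 0.025 in glutamine-free and -0.76 ± 0.025 in complete medium, and Ccnb2 by 0.73 ± 0.034 in glutamine-free and -1.30 ± 0.034 in complete medium. Among these 34 were Ccna2, Cdk1 and Foxm1, where a scaling changed a sign: Ccna2 in glutamine-free medium was 0.10 and became -0.03 with median centring, and in complete medium Cdk1 was -0.07 and became 0.03, and Foxm1 was -0.10 and became 0.01, with libraries rescaled to the same sum. Also among them, Mad2l1 (0.017), Kif11 (0.0) and Kif2c (0.035) were not called in glutamine-free medium with median centring. Kif2c was not called there with quantile normalization either (0.031).
In p53-null cells 11 members were higher than in WT cells in both media, as were 35.8% of all tested genes, namely Cdc25b, Cdc25c, Aurka, Bub1, Ube2c, Spc25, Kif20a, Tpx2, Top2a, Ncaph and Mybl2. Bub1 had the largest difference in glutamine-free medium, 1.70 ± 0.019, and was 0.86 ± 0.019 in complete medium, while Mybl2 differed by 0.91 ± 0.019 in glutamine-free and 0.98 ± 0.019 in complete medium. Lower in both media were 27.8% of all tested genes and 8 members, Cks2, Bub3, Ttk, Cdc20, Cdca8, Ckap2, Smc2 and Smc4, but with libraries rescaled to the same sum the glutamine-free difference turned to 0.03 for Bub3, 0.04 for Ttk, 0.06 for Cdca8 and 0.08 for Ckap2. Cdc20 had the lowest difference of the members in each medium, -0.61 ± 0.021 in glutamine-free and -1.69 ± 0.021 in complete medium. Smc4 differed by -0.43 ± 0.016 in glutamine-free and -1.22 ± 0.016 in complete medium.

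**Figure D4:**
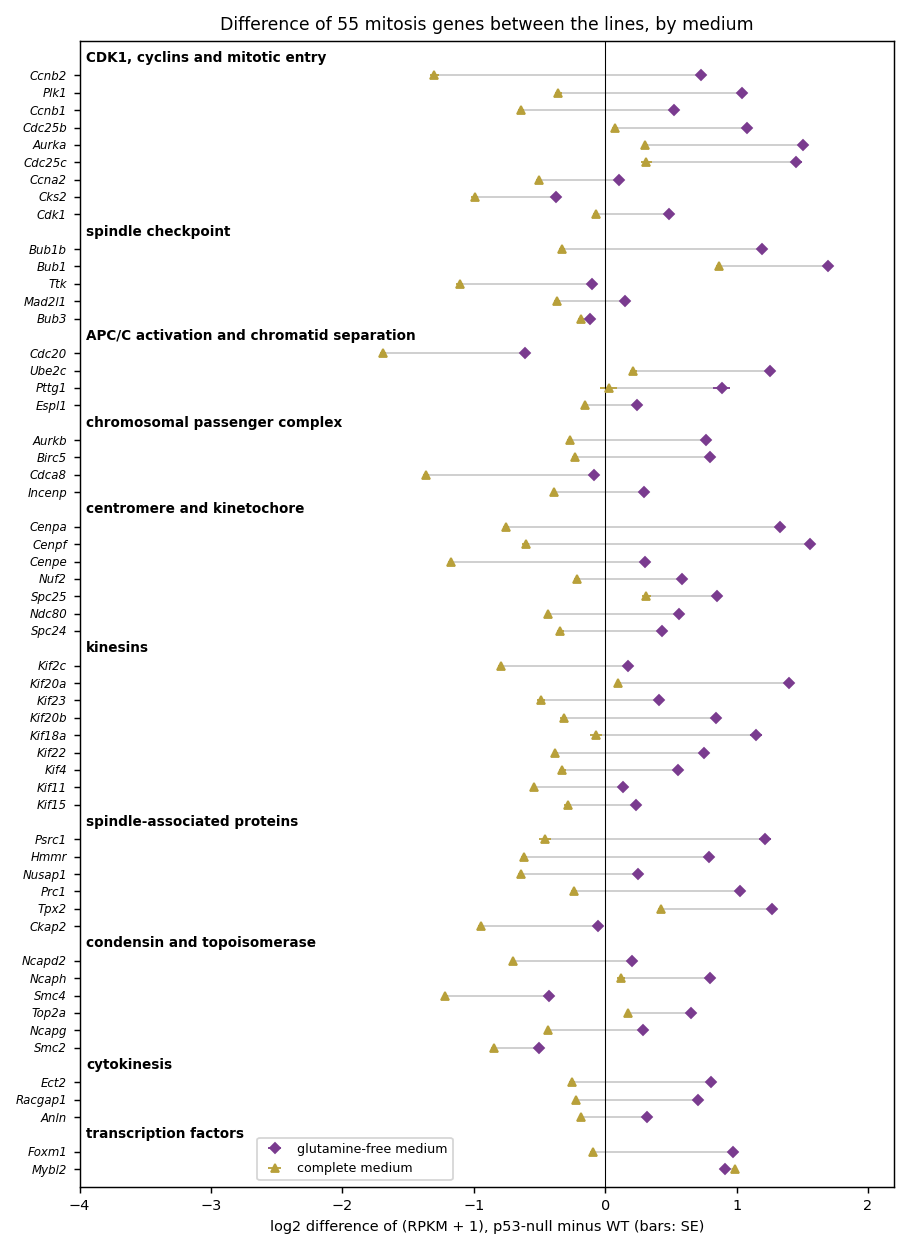
Log2 difference of RPKM + 1 between the lines, p53-null minus WT, for each mitosis gene by role, in glutamine-free (diamonds) and complete medium (triangles), with bars for the SE. Glutamine-free points lie mostly above 0, with a median of 0.65, and complete-medium points mostly below it, with a median of -0.33, while Mybl2 and Bub3 differ little between the media.

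The difference of the medium responses, p53-null minus WT, was tested in the same fit. It was above 0 for 53 members and below 0 for 1, Mybl2, where 46.4% of all tested genes were above and 38.4% below (limma). Its median was 0.92 over the members and 0.06 over all tested genes, and -0.04 over all tested genes with median centring, which left the members at 0.82. A value of at least 1 on the log2 scale was found for 25 members and for 9.98% of all tested genes, and for 16 members with quantile normalization. Cenpf had the largest difference, 2.17 ± 0.036 (adjusted p = 2.7e-14, limma), followed by Cenpa at 2.08 ± 0.035 and Ccnb2 at 2.03 ± 0.048. A WT fall larger than the p53-null one also gives a positive value. For 9 of the 55 members, and for 11.6% of all tested genes, the calls were opposite, higher in p53-null and lower in WT cells. That count is near the share of all genes, so opposite calls were not particular to the members. Among these members the difference was 1.14 ± 0.059 for Cdc25c, 1.01 ± 0.038 for Ttk, 0.69 ± 0.019 for Incenp, 1.28 ± 0.03 for Cdca8 and 0.996 ± 0.028 for Ndc80. For the others of the 9 it was 0.77 ± 0.038 for Spc24, 0.72 ± 0.025 for Ncapg, 0.35 ± 0.027 for Smc2 and 1.07 ± 0.026 for Foxm1. The p53-null rise of Cdc25c, Ndc80, Spc24 and Smc2 within this count changed sign with quantile normalization, as given above.
Mybl2 responded nearly alike in the lines, with a difference of -0.072 ± 0.026 (adjusted p = 0.022, limma) that was not called with libraries rescaled to the same sum (-0.03) or without WT complete library 2, p53-null glutamine-free library 3 or p53-null complete library 2 (-0.06 each). For Bub3 the difference of 0.065 ± 0.032 did not pass (adjusted p = 0.071, limma). It was called with libraries rescaled to the same sum (0.11) and without WT complete library 2 (0.08), p53-null glutamine-free library 2 (0.08) or p53-null complete library 1 (0.08), and turned to -0.04 with median centring. These are the 2 members whose changes in the lines were closest.

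**Figure D5:**
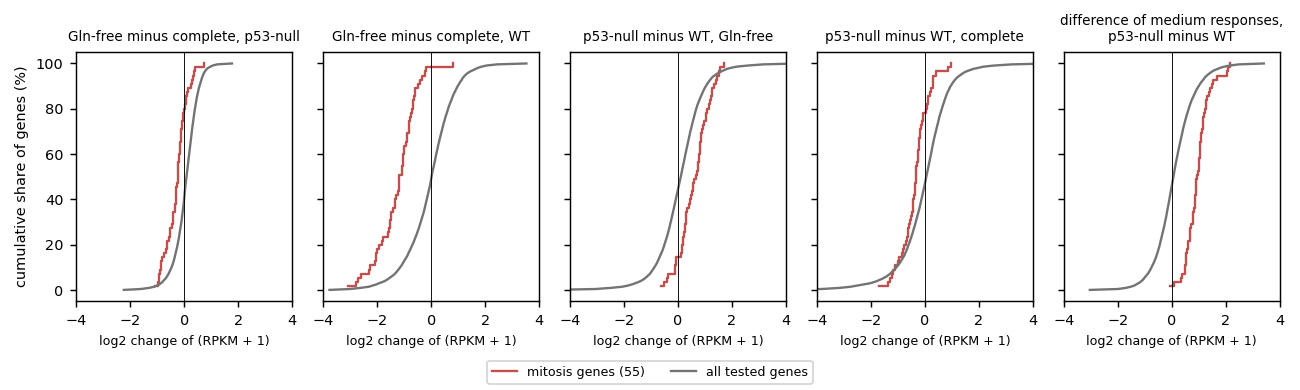
Cumulative share of genes (%) by log2 change of RPKM + 1, for the 55 mitosis genes (red) and all tested genes (grey), in each of the 5 comparisons. The red curve lies left of the grey one for the medium responses, with medians of -0.24 against 0.08 in p53-null and -1.18 against 0.01 in WT cells, and right of it for the difference of responses, 0.92 against 0.06.

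Ratios of members within a library do not change when all its RPKM values are multiplied by the same factor. Quantile normalization, and median centring on the log2(RPKM + 1) scale, can change them. The ratios of 3 pairs, chosen after their values were seen, show how far the members shifted against each other. The ratio of Ccnb2 to Ccna2, in RPKM, averaged 0.212 ± 0.0079 in p53-null glutamine-free and 0.348 ± 0.011 in p53-null complete libraries, against 0.130 ± 0.0069 in WT glutamine-free and 0.614 ± 0.018 in WT complete libraries (SD, n = 3). The ratio of Cenpf to Top2a was 0.0659 ± 0.0013 in p53-null glutamine-free and 0.085 ± 0.0022 in p53-null complete libraries, against 0.0282 ± 0.00094 in WT glutamine-free and 0.149 ± 0.0012 in WT complete libraries. Both ratios thus stood in the order of Ccnb2 itself, so Ccnb2 fell further than Ccna2, and Cenpf further than Top2a, in each line. The ratio of Mybl2 to Foxm1 was 0.768 ± 0.024 in p53-null glutamine-free and 0.56 ± 0.0094 in p53-null complete libraries, against 0.797 ± 0.0035 in WT glutamine-free and 0.254 ± 0.0097 in WT complete libraries. Without glutamine that ratio was higher in each line.

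Other genes of mitosis, of its transcriptional regulators and of DNA replication were counted in 7 lists. In p53-null cells, where 32% of all tested genes fell and 50% rose, the other spindle, kinesin and cytokinesis genes fell in 16 and rose in 14 of 35, or fell in 15 and rose in 16 with libraries rescaled to the same sum. The other kinases and regulators fell in 11 and rose in 9 of 21 tested, and the other kinetochore genes rose in 18 and fell in 10 of 34, near those shares. The APC/C genes rose in 7 and fell in 7 of 15, with rises near the share of all genes. With quantile normalization the other kinetochore genes rose in 14 and fell in 13. DNA replication genes rose in 25 and fell in 6 of 32, median 0.31, with Mcm10 at 1.03 ± 0.019. Cohesin and condensin II genes rose in 9 and fell in 3 of 16, with rises again near the share of all genes, and in 8 each with quantile normalization, and MuvB, DREAM and NF-Y genes rose in 10 and fell in 4 of 15.
In WT cells, where 44% of all tested genes fell and 46% rose, 28 of 35 other spindle, kinesin and cytokinesis genes fell and 7 rose on glutamine withdrawal, with a median log2 change of -0.80. Among them Fam83d, which places a kinase on the spindle, changed by -2.13 ± 0.046, Aspm, which focuses spindle poles, by -2.12 ± 0.027 and Dlgap5, which stabilises spindle microtubules, by -2.06 ± 0.025. Other mitotic kinases, phosphatases and regulators fell in 14 and rose in 7 of 21 tested of 22 listed, median -0.38, with Cdkn3 at -2.18 ± 0.074, Ccnf at -2.03 ± 0.025 and Melk at -1.53 ± 0.024. Other kinetochore and centromere genes fell in 22 and rose in 10 of 34, median -0.26, with Knstrn, a spindle and kinetochore adaptor, at -2.27 ± 0.028 and Sgol2a, a guardian of centromeric cohesion, at -1.74 ± 0.028. The APC/C subunits and Fzr1 fell in 9 and rose in 4 of 15, median -0.19, with the late activator gene Fzr1 at -1.60 ± 0.029 and the subunit gene Anapc16 at 1.74 ± 0.032. Cohesin and condensin II genes rose in 9 and fell in 6 of 16, near the shares of all genes. Their median was 0.23, with Wapl, which opens the cohesin ring, at 0.79 ± 0.019 and Ncaph2 at -0.89 ± 0.017. Genes that encode MuvB, DREAM and NF-Y subunits rose in 9 and fell in 4 of 15, median 0.36, with Nfya at 1.42 ± 0.023 and Rbl2, which encodes the p130 subunit of DREAM, at -1.26 ± 0.026. DNA replication genes, which act a stage earlier in the cycle, rose in 24 and fell in 6 of 32, median 0.37, with Ccne2 at 1.36 ± 0.044, Cdc6 at 1.13 ± 0.029 and Gins2 at -1.62 ± 0.022.
The difference of responses was above 0 for 30 of 35 other spindle, kinesin and cytokinesis genes and below for 1, against 46.4% and 38.4% of all tested genes, median 0.80, with Depdc1a at 1.58 ± 0.037. It was above 0 for 29 and below for 3 of the other kinetochore genes, median 0.44, and above for 12 and below for 12 of the DNA replication genes.
Between the lines 51.4% of all tested genes were higher and 40% lower in p53-null cells in glutamine-free medium, and 48.4% higher and 42.5% lower in complete medium. In glutamine-free medium 29 of the other spindle, kinesin and cytokinesis genes were higher and 3 lower in p53-null cells, and in complete medium 10 were higher and 23 lower. Other kinetochore genes were higher in 28 and lower in 5 in glutamine-free medium, and higher in 19 and lower in 14 in complete medium, where the counts are near the shares of all genes. Other kinases and regulators were higher in 14 and lower in 6 in glutamine-free medium, and in complete medium higher in 9 and lower in 11, or in 10 and 9 with libraries rescaled to the same sum.

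Some reads of the members cannot be placed with certainty. Exons of 14 members lie in part under a gene on the other strand, over more than 25% of their length for Kif20a only, and the labels give no counting rule for such reads. Ccnb1, Ccnb2, Kif22 and Kif4 each have an annotated processed pseudogene of the same name, whose reads could be shared with them.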

How the data were processed

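RNA from 12 libraries, 3 in each of 4 groups, was prepared with a TruSeq RNA V2 kit from 0.5 ug of total RNA, per the labels' protocols. The authors deposited RPKM per gene, and the submitters' processing notes name CASAVA 1.8, HISAT2 2.0.4, Partek and mm10; the rule for counting reads is not given in the sources used here. Whole reads could not be recovered from the values, so depth is an estimate and no count test was run.
Entries with at least 1 RPKM in at least 3 libraries were kept, and log2(RPKM + 1) was fitted over all 4 groups with limma 3.58.1 (R 4.3.3), with an intensity trend and Benjamini-Hochberg adjustment over 11461 entries at 0.05. The added 1 understates changes of low genes. The fit was tested on simulated data in which a small share of genes changed, in WT glutamine-free libraries alone. Of 67 genes changed 1.2-fold, 59 were recovered in the WT comparison and 51 in the difference of responses. At 1.5-fold all 67 were recovered in both, and 0.169% and 0.115% of unchanged genes were called. In the real data far more genes were called, and a simulation with few changed genes does not test how libraries are scaled. The labels' replicate numbers were not used as a block.
The members and gene lists were chosen with earlier results of these data known. Values in every library are given, in each role, for the 3 members with the largest WT change, any member not lower in WT, and the 3 largest and 3 smallest differences of responses. Any other member may be named, by fitted changes, means or ranges. In the other lists the rule took up to 3 called genes with the largest change, of which some are given, and Trp53 and Cdkn1a check the lines. All 169 genes of the other lists were found, 4 by a synonym. Motifs were searched as exact letters on both strands in RefSeq windows. Gene positions are those of GENCODE M21, and 26 names in the table had been turned into dates and were not restored. Alternatives were a pseudocount of 0.1, no filter, 3 rescalings, the replicate block, a fit of only the groups compared, and each library left out in turn.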

Additional observations from a re-analysis of the deposited data

Results flagged for a closer look

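The medium response differed between the lines by the test of the difference itself (limma) for 54 members, above 0 for 53 and below 0 for 1, where 46.4% of all tested genes were above and 38.4% below. The largest differences, p53-null minus WT, were 2.17 for Cenpf, 2.08 for Cenpa and 2.03 for Ccnb2, all genes that fell in both lines and further in WT cells. The members called in opposite directions, higher in p53-null and lower in WT cells as were 11.6% of all tested genes, differed by 1.14 for Cdc25c, 1.01 for Ttk, 0.69 for Incenp, 1.28 for Cdca8, 0.996 for Ndc80, 0.77 for Spc24, 0.72 for Ncapg, 0.35 for Smc2 and 1.07 for Foxm1. The count of these members, 9 of 55, is near that share of all genes. Among these 9, the p53-null rises of Cdc25c, Ndc80, Spc24 and Smc2 changed sign with quantile normalization. Mybl2 was the member below 0, at -0.072. Groups of 3 libraries were too small to look for single libraries that stood apart.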

How the results depend on the processing

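In p53-null cells the median was -0.39 (quantile) and -0.35 (median centring), rises numbered 6 under each, and falls of at least 2-fold numbered 3 (pseudocount 0.1), 6 (quantile) and 5 (centring). Signs turned there for Birc5 (0.019, same sum), for Cdc25c (-0.031), Bub1 (-0.118), Ndc80 (-0.107), Spc24 (-0.080) and Smc2 (-0.037) with quantile normalization, and for Cdc25c (-0.010), Bub1 (-0.095), Ndc80 (-0.057) and Spc24 (-0.038) with centring. With libraries left out in turn Bub1 ran from -0.004 to 0.022, Birc5 from -0.016 to 0.008, and rises from 7 to 9 in the p53-null ones. The members' counts of rises and falls in WT cells did not move by over 1.5 times under any alternative; their median was -1.22 with a pseudocount of 0.1 and -1.24 with quantile normalization.
Between the lines in glutamine-free medium the median was 0.80 (same sum), 0.55 (quantile) and 0.52 (centring), 4 members were lower with the same sum, Bub3 (0.026), Ttk (0.038), Cdca8 (0.063) and Ckap2 (0.083) turned there, and Ccna2 turned to -0.032 with centring. In complete medium the median was -0.23 (same sum), -0.30 (quantile) and -0.37 (centring), and 1 member was at least 2-fold higher with a pseudocount of 0.1, the same sum or quantile normalization. With the same sum Cdk1 was 0.032, Kif18a 0.026 and Foxm1 0.007, and Pttg1 was -0.006 with quantile normalization, -0.010 with centring and -0.018 to 0.085 with libraries left out.
The difference of responses had a median of 1.01 (pseudocount 0.1), 0.96 (same sum), 0.85 (quantile) and 0.82 (centring), 16 members of at least 2-fold with quantile normalization, 0 members below 0 with the same sum and 0 to 1 with libraries left out, and Bub3 at -0.035 with centring. The cause of these shifts was not tested. No filter and a fit of only the groups compared moved no summary, but they changed calls of single members. The p53-null rises of Cdc25c and Spc24 were not called without the filter. Those of Ndc80 and Spc24 were not called with only the groups compared. In that fit the p53-null fall of Cdk1 and the lower Kif18a of p53-null cells in complete medium were called.
Samples with the same replicate number did not deviate together (r = -0.106 to 0.088 over 18 pairs, 0 of them over 0.1). Such values from 3 libraries per group cannot show whether these samples shared a culture or a day, and the labels do not say. With the replicate block 9 members rose in p53-null cells and 54 differences of responses were above 0, Ndc80 in p53-null cells was not called (limma adjusted p = 0.053) and the Bub3 difference was (limma adjusted p = 0.031). Depth is estimated, 1 line stands for each genotype, and 9 members had no promoter window.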
